A study of Mus musculus with 4 samples.

Results

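The 34 genes described here encode the machinery by which a muscle fibre takes up glucose, stores it as glycogen, breaks it down to pyruvate and exports lactate. They were chosen by name from textbook pathway membership, with earlier results of these data known. Of these, 10 are glycolytic enzymes from glucose 6-phosphate to pyruvate, 4 belong to glucose entry, 7 to glycogen breakdown and 6 to glycogen synthesis. The others are 5 regulators and bypass enzymes and 2 lactate carriers. Each of the 34 was found in the count tables, out of 28989 entries that name a single gene. The tissue was mouse tibialis anterior, a fast muscle of the lower leg, and 4 muscles (1 to 4) formed a single group, with no treatment or genotype among the labels. Each muscle was cut into serial cross-sections along 1 axis, and the messenger RNA of each section was sequenced under its own barcode (TOMO-seq with CEL-Seq2 chemistry, which counts 3′ ends of transcripts by unique molecular identifiers, UMIs). The labels do not state that the muscles came from separate animals. P-values thus measure only how differences along the muscle vary among these samples, and that variation may be technical. The comparison that the design implies is position along the muscle.

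Fast muscle fibres meet sudden energy demand by splitting glycogen with glycogen phosphorylase and burning the released sugar through glycolysis to pyruvate and lactate. Type 2B fibres, marked by the myosin Myh4, depend most on this route, while type 2A fibres, marked by Myh2, are more oxidative and take up more glucose from blood. Hexokinase and the glucose carriers control that uptake, whereas phosphorylase, phosphoglucomutase and the lower glycolytic enzymes carry the flow from glycogen.

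The authors kept 37, 45, 46 and 43 sections of muscles 1 to 4, 171 in all, holding 18924848, 17114433, 26989829 and 22878407 transcripts. Single sections ranged from 86190 to 1159697 transcripts. Each kept stretch was split by position into 5 equally long zones, numbered from the low to the high section barcodes, within which counts were summed. "Ends versus middle" compares the mean of zones 1 and 5 with zone 3, and "first end versus last end" compares zone 1 with zone 5. Which anatomical end came first is not given in the labels. Levels are given as CPM, transcript counts brought to 1 common total after TMM scaling (a scaling that sets the typical gene equal between libraries). Each transcript counts once at its 3′ end, so no length enters. Markers of fast fibres summed to between 33919 and 48505 CPM over all zones and muscles, and markers of slow fibres to between 36.6 and 119.8. Muscles 1 and 2 carried 1 set of section barcodes and muscles 3 and 4 another, so the barcode set and the pair of muscles cannot be told apart. All members were counted in bulk sections, where fewer cells of a type and less RNA per cell cannot be told apart.

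Glycolytic and glycogenolytic enzymes dominated the pathway. The 34 genes held 2.33%, 2.18%, 2.05% and 2.19% of the transcripts of muscles 1 to 4, or 5.69%, 5.58%, 5.71% and 6.62% of those not encoded in mitochondria. Aldoa (aldolase, which splits fructose bisphosphate), Pygm (muscle glycogen phosphorylase) and Gapdh (glyceraldehyde phosphate dehydrogenase) together made up from 67.6% to 74.3% of the pathway's transcripts in each muscle. Aldoa stood at 8273, 8365, 7138 and 9091 CPM in muscles 1 to 4. Pygm stood at 5102, 4692, 4737 and 7181 CPM, close together in 3 muscles and highest in muscle 4. Gapdh followed with 2121 ± 531 CPM (mean ± SD over muscles, n = 4). UMIs of 6 bases can be exhausted by such abundant genes: the fullest section had used 95.1% of the possible UMIs for Aldoa, 89.2% for Pygm and 51.9% for Gapdh. No kept section reached the ceiling for any of the 34, and Aldoa was above 90% in 3 sections of muscle 1 and 1 of muscle 3.

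**Figure D1:**
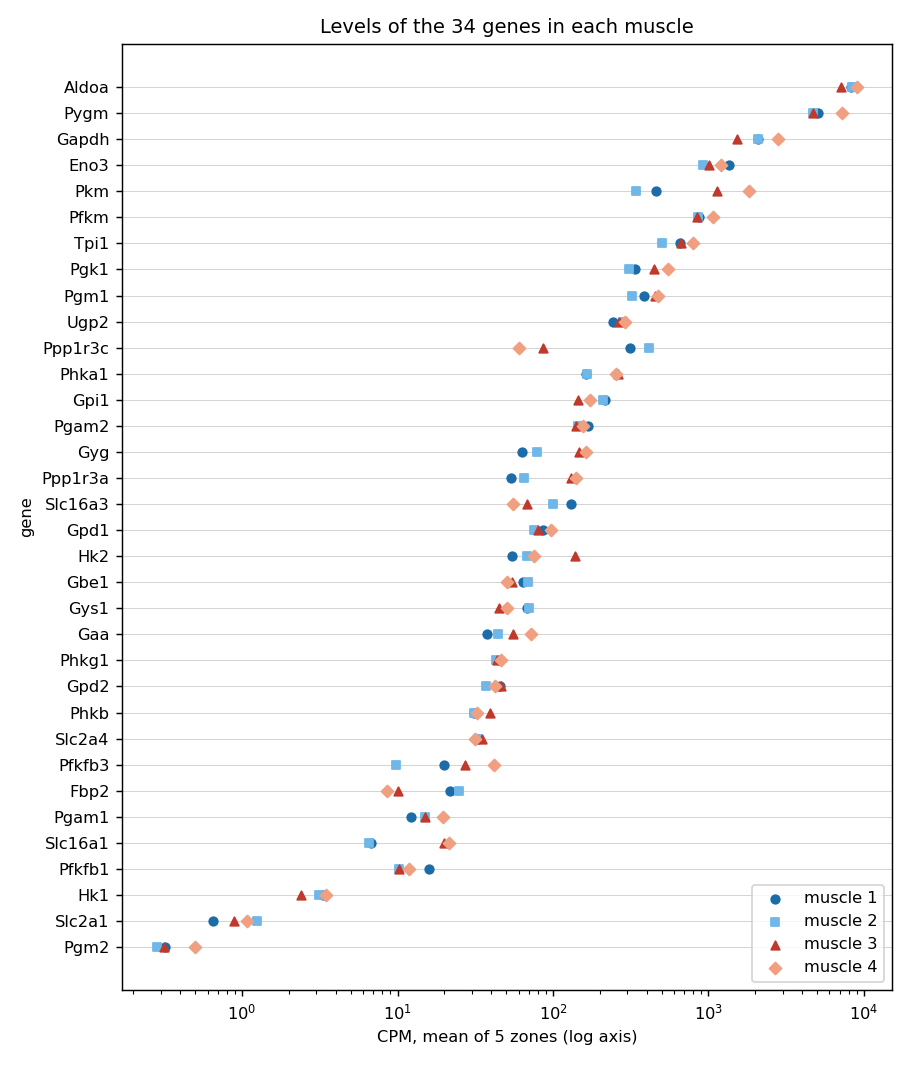
Levels of the 34 genes in CPM (log axis, mean of the 5 zones), with 1 point per muscle. Aldoa, Pygm and Gapdh lead in every muscle, Slc2a1 and Pgm2 stand near 1 CPM or below, and Ppp1r3c and Pkm show the widest gaps between muscles 1 and 2 (blue) and muscles 3 and 4 (red).

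Apart from the phosphoglycerate mutases, the remaining enzymes of the trunk of glycolysis were each present at 186 CPM or more on average. Eno3, the muscle enolase, was at 1124 ± 194 CPM, Pkm (pyruvate kinase, the last step) at 936 ± 681 and Pfkm (muscle phosphofructokinase, the committed step) at 906 ± 110. Tpi1 (triose phosphate isomerase) was at 656 ± 120, Pgk1 (phosphoglycerate kinase) at 410 ± 110 and Gpi1 (glucose phosphate isomerase) at 186 ± 33.8. These are means ± SD over 4 muscles, and for Pkm the SD reflects muscles that lay far apart, at 457, 342, 1128 and 1815 CPM. Muscle isoforms outnumbered their broadly expressed relatives: Pgam2, the muscle phosphoglycerate mutase, was at 152 ± 12.1 CPM against 15.5 ± 3.07 for Pgam1. Relatives outside the 34 were rarer still, with 57 transcripts over all kept sections for Pfkl (liver phosphofructokinase), 29 for Aldoc (brain aldolase), 79 for Pygb (brain phosphorylase) and 35 for Pygl (liver phosphorylase).

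Genes of glucose entry were below all of the trunk but Pgam1. Hk2, the insulin-responsive hexokinase of muscle, was at 54.8, 68.3, 138.8 and 74.9 CPM in muscles 1 to 4, highest in muscle 3. Hk1, the broadly expressed hexokinase, reached 3.07 ± 0.48 CPM. Slc2a4 (GLUT4, the insulin-responsive glucose carrier) varied little, at 33, 32.7, 34.8 and 31.7 CPM. Slc2a1 (GLUT1, the basal carrier) was at 0.96 ± 0.25 CPM, with 82 transcripts in all, and did not pass the filter on low counts. These ran in the order Hk2, Slc2a4, Hk1 and Slc2a1, and the ranges over muscles did not overlap between any of these neighbours.

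In glycogen breakdown, Pgm1 (phosphoglucomutase, which links glucose 1-phosphate to glycolysis) was at 385, 321, 451 and 470 CPM in muscles 1 to 4. Pgm2 (a relative that acts mainly on pentose phosphates) had 30 transcripts in all and was not tested. The names Pgm1 and Pgm2 have been exchanged between these 2 mouse genes in older annotation; here they follow the identifiers ENSMUSG00000025791 and ENSMUSG00000029171. The subunits of phosphorylase kinase, which switches phosphorylase on, were unequal: Phka1 (muscle alpha subunit) was at 211 ± 55 CPM, Phkg1 (catalytic gamma subunit) at 44.5 ± 1.33 and Phkb (beta subunit) at 33.4 ± 4.03. Gaa, the lysosomal glucosidase, was at 52.3 ± 15.2. Of glycogen synthesis, Ugp2, which makes UDP-glucose, was the most even at 272 ± 20.9. Gyg (glycogenin, the primer) was at 113 ± 49.1, Gbe1 (branching enzyme) at 59.6 ± 8.44 and Gys1 (muscle glycogen synthase) at 58.4 ± 12.5. Ppp1r3a and Ppp1r3c, which bring protein phosphatase 1 to glycogen, were at 97.2 ± 43.8 and 218 ± 172.

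Among regulators and bypass enzymes, Gpd1 and Gpd2, the cytosolic and mitochondrial glycerol phosphate dehydrogenases of the shuttle that passes electrons to mitochondria, were at 84.6 ± 9.76 and 42.9 ± 4.12 CPM. Pfkfb3 and Pfkfb1, which set fructose 2,6-bisphosphate, the activator of phosphofructokinase, were at 24.6 ± 13.5 and 12 ± 2.72. Fbp2, the muscle fructose bisphosphatase, was at 16.3 ± 8.14. Slc16a3 (MCT4, the lactate exporter of fast fibres) was at 88.6 ± 33.9 and Slc16a1 (MCT1, which serves lactate uptake in oxidative fibres) at 13.6 ± 8.09.

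Along the muscle, 4 members were higher at both ends than in the middle (Ppp1r3c, Pkm, Pgm1 and Tpi1) and 1 was lower (Hk2). Of 9317 genes that passed the filter on low counts, 58 were higher at the ends (0.623%) and 77 were lower (0.826%) at an edgeR adjusted p under 0.05, against 4 and 1 of the 32 members that passed. The changes were small, from 1.16-fold to 1.25-fold for the genes that rose and 0.742 of the middle level for Hk2. Standard errors (SE) come from the fit to all 20 zone sums with muscle as a block. For the members called, the 4 per-muscle differences are given beside them.

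Hk2 fell toward both ends. It stood at 61.7, 79.5, 181 and 75.6 CPM in the middle zone of muscles 1 to 4. In the first zone it was at 46.6, 67.5, 123 and 64.8, and in the last at 45.6, 45.2, 121 and 66.8. Each end zone was thus below the middle zone of its own muscle in all 4 muscles, although muscles overlapped, the ends of muscle 3 lying above the middle of the other 3. The log2 difference was -0.43 ± 0.08 (SE; edgeR adjusted p = 0.000321). Muscles 1 to 4 gave -0.42, -0.52, -0.57 and -0.20. The highest zone was not the middle one in muscles 2 and 4, where zone 2 held 86.4 and 84.2 CPM. Single sections of muscle 2 ran from 11.2 to 123 CPM with a median of 71.5, and those of muscle 3 from 36.7 to 221 with a median of 132.

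Pgm1 rose at the ends, with 362, 288, 365 and 425 CPM in the middle zone of muscles 1 to 4. The first zone held 413, 311, 477 and 470, and the last held 415, 375, 494 and 522. In muscle 4 zone 4 held 539, above both ends. Both ends were above the middle in all 4 muscles (log2 difference 0.27 ± 0.06, SE, with edgeR adjusted p = 0.0089). The per-muscle differences were 0.19, 0.25, 0.41 and 0.22 (SD 0.10).

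Pkm rose at the ends, from 407, 333, 892 and 1682 CPM in the middle zone to 515, 347, 1194 and 1740 in the first and 471, 366, 1321 and 2290 in the last. The per-muscle differences were 0.27, 0.10, 0.49 and 0.25, smallest in muscle 2 (fit 0.28 ± 0.07, SE; edgeR adjusted p = 0.0116).

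Ppp1r3c, also called PTG, rose at the ends most in muscles 2 and 3. The middle zone held 296, 343, 63.8 and 56.5 CPM, the first 324, 411, 102 and 59.3 and the last 319, 521, 96.1 and 60.8. Zone 4 was the highest in muscles 1 and 4, at 327 and 68.1. Per-muscle differences were 0.12, 0.43, 0.63 and 0.09 (fit 0.32 ± 0.07, SE; edgeR adjusted p = 0.00644), so the spread between muscles (SD 0.26) was wider than the SE of the fit.

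Tpi1 rose at the ends as well, from 586, 448, 614 and 785 CPM in the middle zone to 719, 529, 701 and 832 in the first and 687, 557, 733 and 870 in the last. The per-muscle differences of 0.26, 0.28, 0.22 and 0.12 were the most even of the 5 genes (fit 0.22 ± 0.06, SE; edgeR adjusted p = 0.041).

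Muscle 3 weighed heavily in these calls: without it none of the 5 genes was called, in either direction. Hk2 then had -0.37 (edgeR adjusted p = 0.0543), Pgm1 0.22 (0.324), Pkm 0.21 (0.433), Ppp1r3c 0.23 (0.356) and Tpi1 0.21 (0.334), each in its former direction. Only 11 genes of all tested were then higher at the ends and 27 lower. Tpi1 was also not called without muscle 1 (edgeR adjusted p = 0.139) or muscle 2 (0.179). Nor was Tpi1 called with no filter on low counts (0.223), with the UMIs seen (0.0537) or with thinned zone sums (0.0729). Ppp1r3c was not called without muscle 2 (0.0976), nor was Pgm1 with no filter on low counts (0.0506). Within muscles 1 and 2 alone Hk2 was the member called, and within muscles 3 and 4 alone Hk2 and Pkm were. With 3 zones in place of 5 Pkm was the 1 member called at the ends, and with every section weighted equally (limma) 0 members were called.

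**Figure D2:**
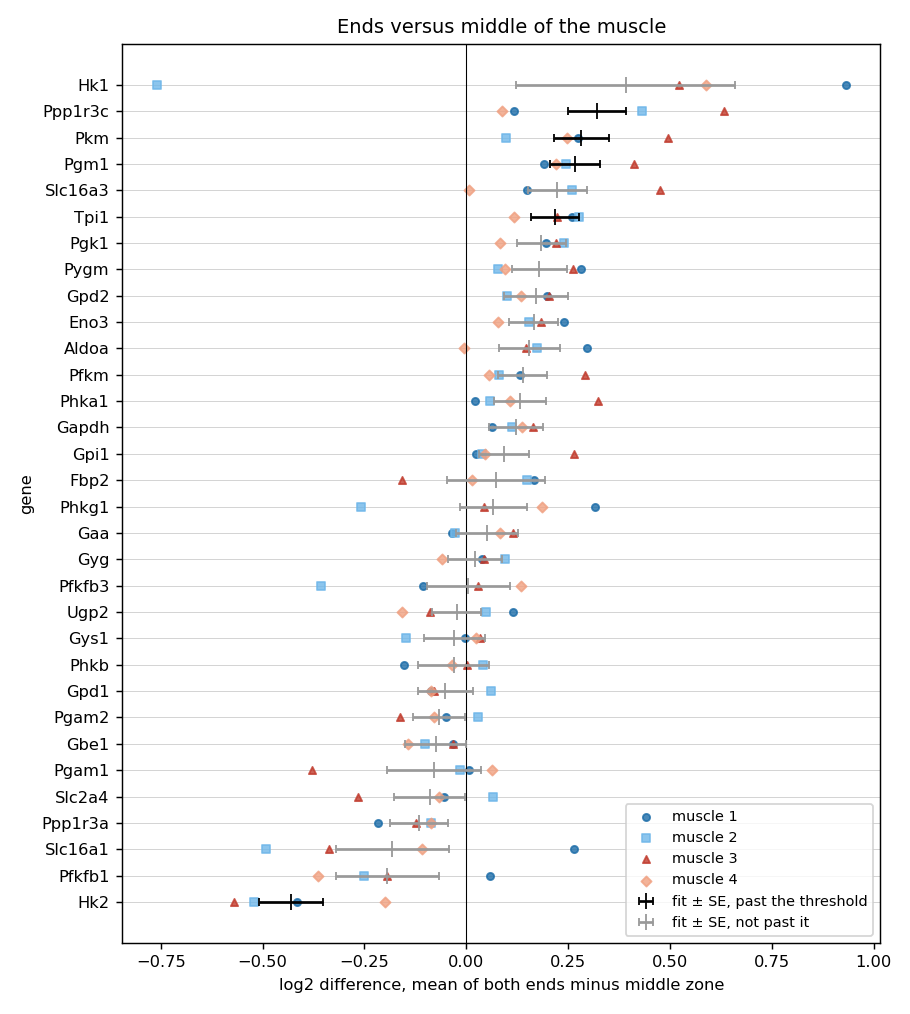
Log2 difference between the mean of both end zones and the middle zone for the 32 genes tested, with 1 point per muscle and the fitted value ± SE as a bar. Black bars mark edgeR adjusted p under 0.05: Ppp1r3c, Pkm, Pgm1 and Tpi1 lie to the right of 0 and Hk2 to the left in all 4 muscles, while Hk1, with few transcripts, spreads from -0.76 to 0.93.

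**Figure D3:**
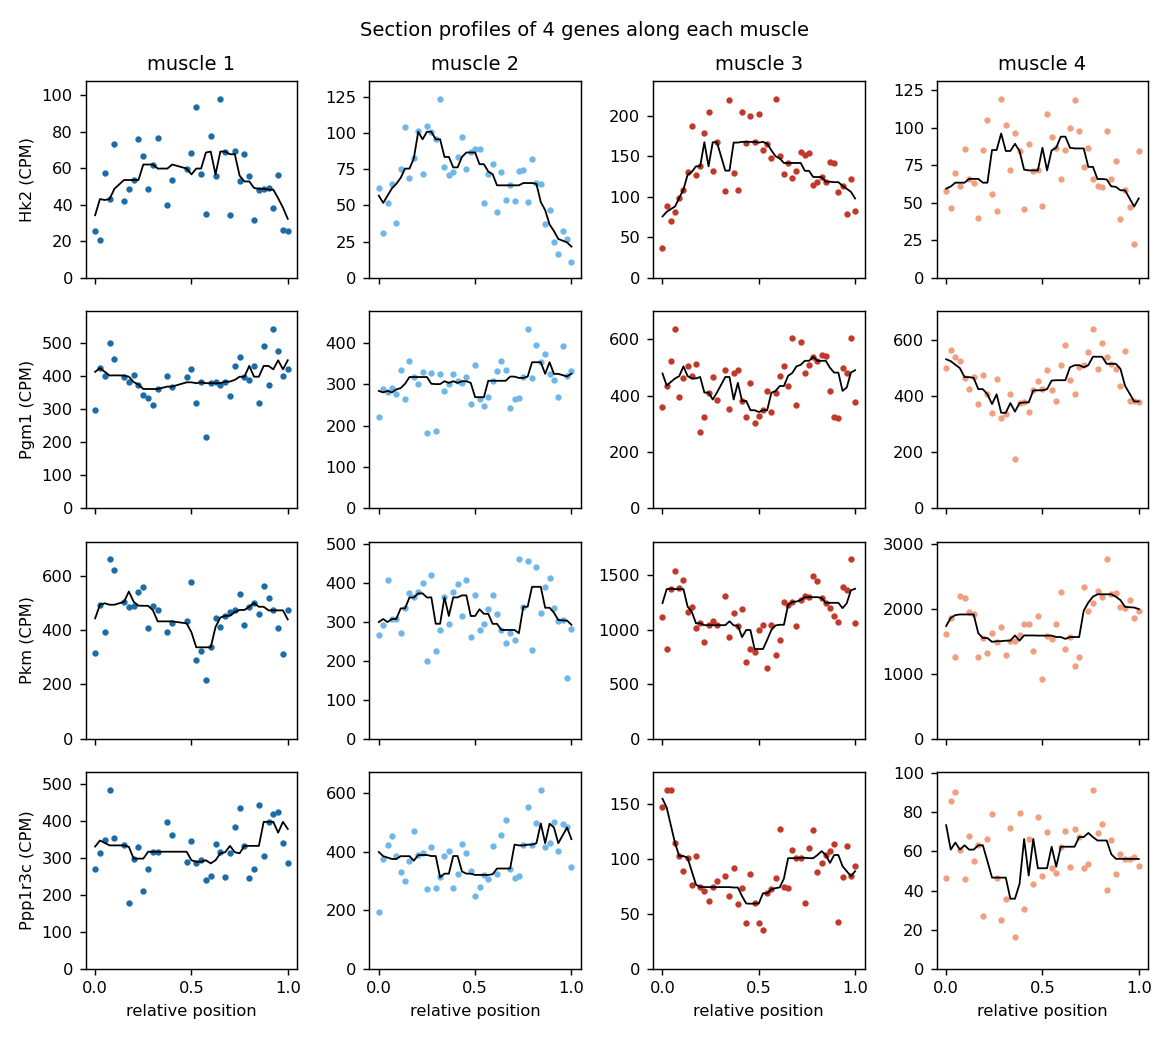
Levels of Hk2, Pgm1, Pkm and Ppp1r3c in single sections against relative position (0 is the first kept section, 1 the last), 1 column per muscle, with a running median over 7 sections as a line; each panel has its own vertical axis, starting at 0. Hk2 forms a dome in muscles 1 to 3, whereas Pgm1, Pkm and Ppp1r3c dip near the middle of muscle 3.

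Sequence before the start sites of 3 of these genes is given because Hk2 fell where Pgm1 and Ppp1r3c rose. Each gene was searched in the 250 bases before its start site in RefSeq (GRCm38.p6), read 5′ to 3′ on the strand of the gene. These windows can run into the gene as GENCODE M21 annotates it, by 0 bases for Hk2, 37 for Pgm1, 49 for Ppp1r3c and 208 for Pkm, and the part before that start is shown, 250, 213 and 201 bases for the first 3. Capitals mark the letters ACGTG or their reverse complement CACGT, the core that hypoxia-inducible factors and some clock factors recognise. Hk2 is on the minus strand at chr6:82774455-82774704, Pgm1 on the plus strand at chr4:99929201-99929413 and Ppp1r3c on the minus strand at chr19:36736654-36736854.
Hk2: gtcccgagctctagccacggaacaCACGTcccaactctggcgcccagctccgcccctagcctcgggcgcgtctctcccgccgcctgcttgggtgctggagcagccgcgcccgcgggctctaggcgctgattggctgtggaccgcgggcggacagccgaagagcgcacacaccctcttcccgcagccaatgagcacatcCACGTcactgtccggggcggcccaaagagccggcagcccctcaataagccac
Pgm1: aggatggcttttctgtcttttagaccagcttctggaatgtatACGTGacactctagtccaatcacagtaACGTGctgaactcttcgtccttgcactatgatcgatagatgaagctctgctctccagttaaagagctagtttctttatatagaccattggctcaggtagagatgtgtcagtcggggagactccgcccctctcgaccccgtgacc
Ppp1r3c: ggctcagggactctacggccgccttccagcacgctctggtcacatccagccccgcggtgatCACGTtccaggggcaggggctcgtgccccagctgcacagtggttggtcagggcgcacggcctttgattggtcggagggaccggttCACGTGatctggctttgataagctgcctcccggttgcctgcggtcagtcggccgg

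ACGTG on either strand occurred at 2 places before Hk2 and 2 before Pgm1, at none in the window of Pkm (the nearer of its 2 start sites to the annotated gene's start) and in 3 matches before Ppp1r3c, 2 of which overlap in a palindrome that is also an E-box (CANNTG, which MyoD and clock factors recognise). Among the members 32 had a window, and 15 of them (46.9%) held ACGTG, against 16.6% of all 32851 windows of the same length. E-boxes were in 25 of 32 (78.1%) against 66.2% of all, GC boxes (GGGCGG) in 17 (53.1%) against 32.7%, and the MEF2 motif in 2 (6.25%) against 2.92%. These sets are unlike. Each member gave a single window, the nearest to its annotated start, while all windows can hold several per gene, whatever its level in muscle. The windows of Aldoa, Gapdh, Phkg1 and Slc16a3 lie wholly inside the annotated gene, and Slc16a3 is among the 15. Enrichment was not tested. The gene that fell and 2 of those that rose thus shared the core. Pkm and Tpi1, which also rose, held none, and 138 bases of the Tpi1 window lie inside the annotated gene. A match is a description of the letters, not of a bound site.

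By role, the glycolytic trunk had 8 of its 10 members above 0 at the ends (median log2 difference 0.15), with Pkm and Tpi1 called. Its next largest values were 0.18 ± 0.06 (SE) for Pgk1, 0.16 ± 0.06 for Eno3, 0.15 ± 0.07 for Aldoa and 0.14 ± 0.06 for Pfkm, with edgeR adjusted p from 0.11 to 0.4. Both phosphoglycerate mutases were the members below 0, at -0.08 for Pgam1 and -0.07 for Pgam2. Glycogen breakdown had 5 of 6 tested members above 0 (median 0.10), with Pgm1 called and Pygm at 0.18 ± 0.07 (edgeR adjusted p = 0.203, above 0 in 4 of 4 muscles). Glycogen synthesis had 2 of 6 above 0 (median -0.03), with Ppp1r3c called. Its sister targeting subunit Ppp1r3a had -0.12 ± 0.07, below 0 in 4 of 4 muscles, without passing the test (edgeR adjusted p = 0.55). Glucose entry had 1 of 3 tested members above 0, the scarce Hk1. Beside Hk2, Slc2a4 had -0.09 ± 0.09, below 0 in 3 of 4 muscles, without passing the test (edgeR adjusted p = 0.767). Of the lactate carriers, Slc16a3 had 0.22 ± 0.07 (adjusted p = 0.109, and 0.0399 without muscle 4) and Slc16a1 -0.18 ± 0.14 (adjusted p = 0.665).

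Over all 32 members the median log2 difference at the ends was 0.07, with 20 of 32 above 0, beside a median of -0.01 and 48.8% above 0 for all genes tested. At an unadjusted p under 0.05, 12 members were higher and 1 lower, against 5.58% and 6.28% of all genes tested. With every section weighted equally (limma, without TMM scaling), 15 of 32 were above 0, with a median of -0.02 beside -0.06 for all genes in that setting. There 20 of 32 lay above the median of all genes. DESeq2, a second count test, called 8 members higher at the ends, against 74 of all genes, adding Pygm (adjusted p = 0.00399), Eno3 (0.00844), Pgk1 (0.0117) and Pfkm (0.0444). With corrected counts replaced by the UMIs seen, Aldoa had 0.32 in place of 0.15, so its value depends on the correction for exhausted UMIs.

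Between the ends, 2 members were lower at the first end than at the last, Phka1 and Pfkfb3, and 0 were higher. Among all genes tested 106 were lower at the first end (1.14%) and 190 higher (2.04%). The 0 higher calls stood beside 0 members higher at an unadjusted p under 0.05 (7.05% of all genes tested), and DESeq2 also called 0 higher.

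Phka1 fell at the first end, standing at 158, 139, 262 and 219 CPM in the first zone of muscles 1 to 4 and at 181, 193, 302 and 304 in the last. The last zone was above the first in all 4 muscles, by most in muscles 2 and 4 (log2 difference -0.33 ± 0.07, SE, with edgeR adjusted p = 0.00377). The per-muscle differences were -0.19, -0.48, -0.20 and -0.47, and their spread (SD 0.16) was wider than the SE of the fit. Without muscle 2 the adjusted p was 0.0886 and without muscle 4 it was 0.069.

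The other subunits of phosphorylase kinase lay on the same side in 4 of 4 muscles without passing the test. Phkb had -0.30 ± 0.11 (edgeR adjusted p = 0.128) and Phkg1 -0.28 ± 0.10 (0.126). With 3 zones in place of 5 both passed, at -0.29 for Phkb (adjusted p = 0.0373) and -0.30 for Phkg1 (0.0296). All 6 tested members of glycogen breakdown, Pygm among them at -0.14, were below 0 in this contrast, with a median of -0.21. Ppp1r3a was below 0 in 4 of 4 muscles as well, at -0.26 ± 0.09 (edgeR adjusted p = 0.0892, and 0.0335 without muscle 4).

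Pfkfb3 fell at the first end, with 16.4, 6.10, 22.8 and 41.6 CPM there and 24.7, 13, 32.8 and 43.8 at the last. The groups of values overlapped between muscles, and muscle 4 showed the smallest difference (-0.57, -1.03, -0.51 and -0.07; fit -0.42 ± 0.12, SE; edgeR adjusted p = 0.0438). It was not called without muscle 1 (0.201), muscle 2 (0.177) or muscle 3 (0.278), nor with DESeq2 (0.0517).

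**Figure D4:**
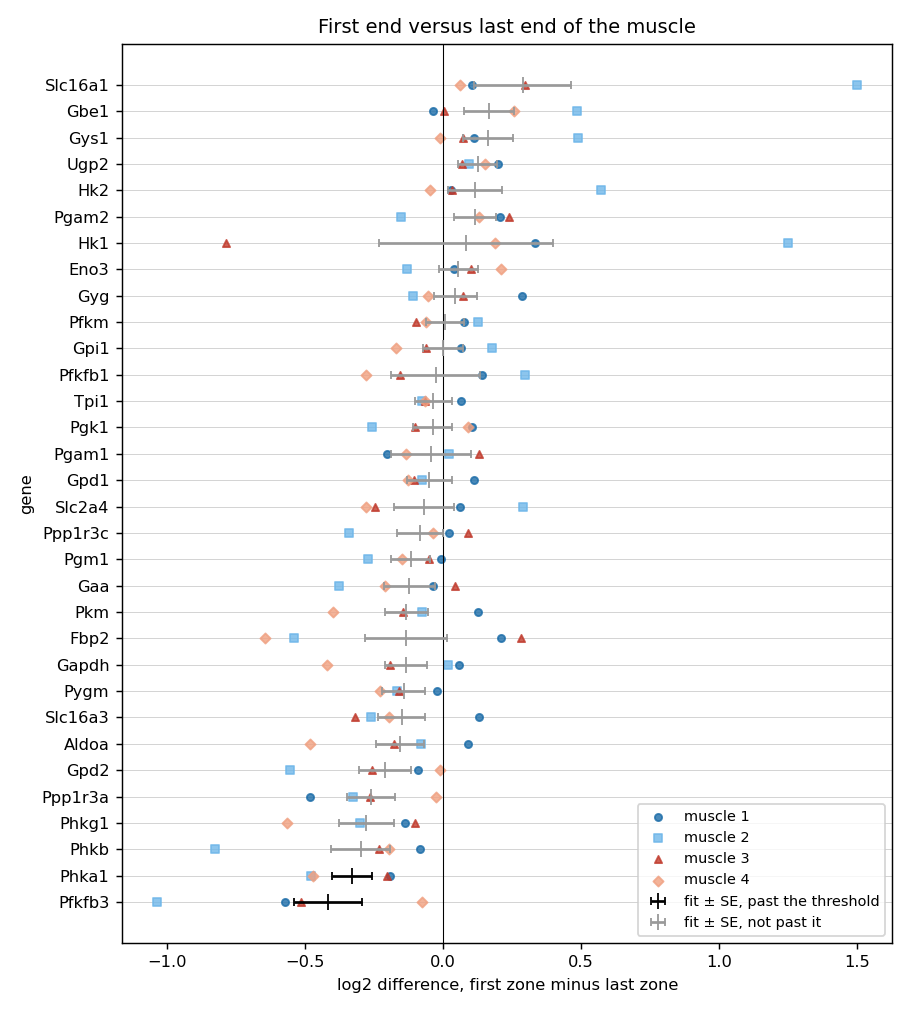
Log2 difference between the first and the last zone for the 32 genes tested, with 1 point per muscle and the fitted value ± SE as a bar. Phka1 and Pfkfb3 (black bars, edgeR adjusted p under 0.05) lie left of 0 in all 4 muscles, and muscle 2 is the farthest point for several genes, such as Slc16a1 at 1.5.

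Of the 10 glycolytic enzymes 4 were above 0 between the ends, with a median of -0.04. With every section weighted equally (limma, without TMM scaling) 0 of the 10 were above 0, with a median of -0.19. The median of all genes in that setting was -0.13, and 2 of the 10 lay above it. Gpi1 (-0.16), Pfkm (-0.14) and Pgam2 (-0.07) were among those below 0 there. Aldoa and Gapdh had -0.16 ± 0.09 and -0.13 ± 0.08, with muscle 4 lowest at -0.48 and -0.42 and muscle 1 highest at 0.09 and 0.06. Over all 32 members the median was -0.06 with 11 above 0, beside -0.003 and 49.6% for all genes tested. At an unadjusted p under 0.05, 6 members were lower, against 6.44% of all genes tested. Ugp2 was above 0 in 4 of 4 muscles, at 0.13 ± 0.07, and Slc16a1 likewise at 0.29 ± 0.17, but neither passed the test (edgeR adjusted p = 0.457 and 0.513).

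A test of any difference among the 5 zones called 5 members, Hk2 (edgeR adjusted p = 0.000598), Pgm1 (0.00107), Phka1 (0.00157), Ppp1r3c (0.00241) and Pkm (0.0154). Among all genes tested 371 were called (3.98%). Without muscle 3, Pkm (0.341) and Ppp1r3c (0.189) were not called, nor was Pkm without muscle 4 (0.0821) or Ppp1r3c without muscle 2 (0.0997).

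Pairs of genes with related roles were compared as log2 ratios within each muscle, 6 pairs in 2 contrasts. The test was an exact sign-flip permutation test over 4 muscles, whose smallest two-sided p is 0.125. None can pass 0.05 in this design, and the smallest adjusted p was 0.5625. The ratio of Gpd1 to Gpd2 was below its middle-zone value at the ends of every muscle (-0.29, -0.04, -0.28 and -0.22; mean -0.21 ± 0.12, SD, n = 4; exact p = 0.125). Hk1 to Hk2 had 1.35, -0.24, 1.09 and 0.79 at the ends, resting on 3 to 21 Hk1 transcripts per zone sum. Slc16a1 to Slc16a3 had -0.02, 1.76, 0.61 and 0.26 between first and last end, with muscle 2 far above the others. In muscle 2 Slc16a1 had 25 transcripts in zone 1 and 7 in zone 5.

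Of 33 further genes of the pathway 15 could be tested. At the ends 2 were higher and 0 lower: Stbd1, which tethers glycogen to membranes (0.41 ± 0.11, SE; edgeR adjusted p = 0.0344), and Slc37a4, the glucose 6-phosphate carrier of the endoplasmic reticulum (0.29 ± 0.08; 0.0327). Their list's median was 0.10 at the ends and -0.06 between the ends, where 0 were called. Of 18 regulators, all tested, Prkag3, the gamma subunit of AMP-activated kinase found in fast muscle, was higher at the ends (0.38 ± 0.11; 0.0462). Gsk3b, a kinase that inhibits glycogen synthase, was below its last-zone level at the first end (-0.48 ± 0.13; 0.0258), with the same sign in every muscle. The list's medians were -0.03 in both contrasts.

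Fibre markers differed between ends and middle as well. Myh2 (type 2A myosin) was lower there than in the middle (-0.71 ± 0.09, SE; edgeR adjusted p = 6.17e-07), and so were Myl3 and Myoz2, 2 of the 5 tested markers of slow and oxidative fibres. Casq1 (0.38) and Mybpc2 (0.27), 2 of 10 markers of fast fibres, were higher at the ends. Type 2A myosin ran from 178 to 888 CPM in zone 3, from 116 to 628 in zone 1 and from 95.6 to 513 in zone 5. Between the ends Myh4 (-0.31) and Actn3 (-0.37) were lower at the first end and Myh1, the type 2X myosin, was higher (0.29). Myh7, the slow myosin, had 13 transcripts in all kept sections.

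Markers of other cells moved as well. At the ends 4 of 7 markers of fibro-adipogenic progenitors were lower (summed level 476 to 630 CPM in zone 3, 335 to 505 in zone 1 and 441 to 553 in zone 5). So were 4 of 5 Schwann cell markers (22.8 to 32.4 in zone 3, 11.1 to 41.1 in zone 1, 9.6 to 14 in zone 5), 1 of 7 endothelial and 1 of 3 macrophage markers. Both tested fat cell markers and 2 of 4 tendon markers were higher there. The tendon sum averaged 22.4 CPM in zone 3, 16.1 in zone 1 and 73.5 in zone 5, so it was above the middle at the last end only. Between the ends 5 of 5 erythrocyte markers were higher at the first end (1342 to 4215 CPM in zone 1 against 604 to 1611 in zone 5), and 3 of 4 tendon markers were lower (10.3 to 21.2 against 34.6 to 132). Also higher at the first end were 2 of 5 slow fibre, 2 of 5 Schwann cell, 2 of 3 smooth muscle and 1 of 7 endothelial markers. Of the progenitor markers 1 was higher and 1 lower there, and the 1 tested satellite cell marker was called in neither contrast. None of the markers that missed the filter was at 0 over the kept sections; the rarest was Lep, with 1 transcript. The part of fibre type and of other cells in the members' differences was not tested.

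Across single sections the members differed in which fast myosin they followed. These are Pearson correlations of log2 levels over the 37, 45, 46 and 43 sections of each muscle for the 31 members at 10 CPM or more; sections of a muscle share a library, a depth profile and their neighbours' fibres, so they are given as descriptions. Hk2 followed Myh2 (r = 0.62, 0.76, 0.74 and 0.34 in muscles 1 to 4) and Myh1 (0.77, 0.76, 0.79 and 0.22) and had little relation with Myh4 (0.27, -0.14, -0.28 and 0.06). Pygm showed the opposite, with 0.60, 0.62, 0.74 and 0.63 for Myh4 and -0.29, -0.16, 0.07 and 0.06 for Myh2. Pgm1 resembled Pygm, at 0.59, 0.56, 0.50 and 0.40 for Myh4 and below 0 for Myh2 in all 4 muscles. Aldoa (0.39 to 0.70) and Phka1 (0.26 to 0.67) also rose and fell with Myh4. Slc2a4, like Hk2 a gene of glucose entry, had 0.04, 0.11, 0.34 and -0.20 with Myh2 and 0.08, 0.21, -0.04 and 0.03 with Myh4.

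Some members of one chain followed different myosins. Ppp1r3c had -0.23, -0.32, -0.56 and -0.03 with Myh2, while Ppp1r3a had 0.30, 0.43, 0.59 and 0.20. Gys1 had 0.17 to 0.57 with Myh2 and 0.13 to 0.53 with Myh1, and Gbe1 had 0.15 to 0.57 and 0.24 to 0.52. Ugp2 had 0.36 to 0.71 with Myh1. In the glycolytic trunk, Pgam2 had 0.19, 0.33, 0.58 and 0.67 with Myh2 and -0.01 to 0.40 with Myh4. Pfkm had -0.10, 0.46, 0.28 and 0.53 with Myh2 and -0.05 to 0.57 with Myh4. The median over the members was between 0.18 and 0.31 for Myh4, against 0.06 to 0.18 for the 3531 genes at that level. For Myh2 it was between 0.09 and 0.28, against 0.14 to 0.19, and for Myh1 between 0.16 and 0.25, against 0.17 to 0.23. In muscle 4 the correlation of Hk2 with Myh1 (0.22) was thus below the median of all genes (0.23). In muscle 1 that of Gys1 with Myh1 (0.13) was below it too (0.21). There Gbe1 with Myh2 (0.15) was at the median of all genes (0.15), and Gys1 with Myh2 (0.17) was close to it. Section depth moved with these levels too: the correlation with the section's total was 0.12 to 0.53 for Hk2, 0.35 to 0.54 for Pgm1 and 0.27 to 0.55 for Pygm. It was 0.51 to 0.69 for Ugp2, 0.36 to 0.63 for Gys1 and 0.36 to 0.66 for Gbe1, and 0.10 to 0.40 for Ppp1r3a, 0.06 to 0.39 for Phka1 and 0.09 to 0.49 for Aldoa. For Pgam2 it was 0.50 to 0.68, for Pfkm 0.55 to 0.64 and for Slc2a4 0.10 to 0.44. The part of depth was not tested.

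**Figure D5:**
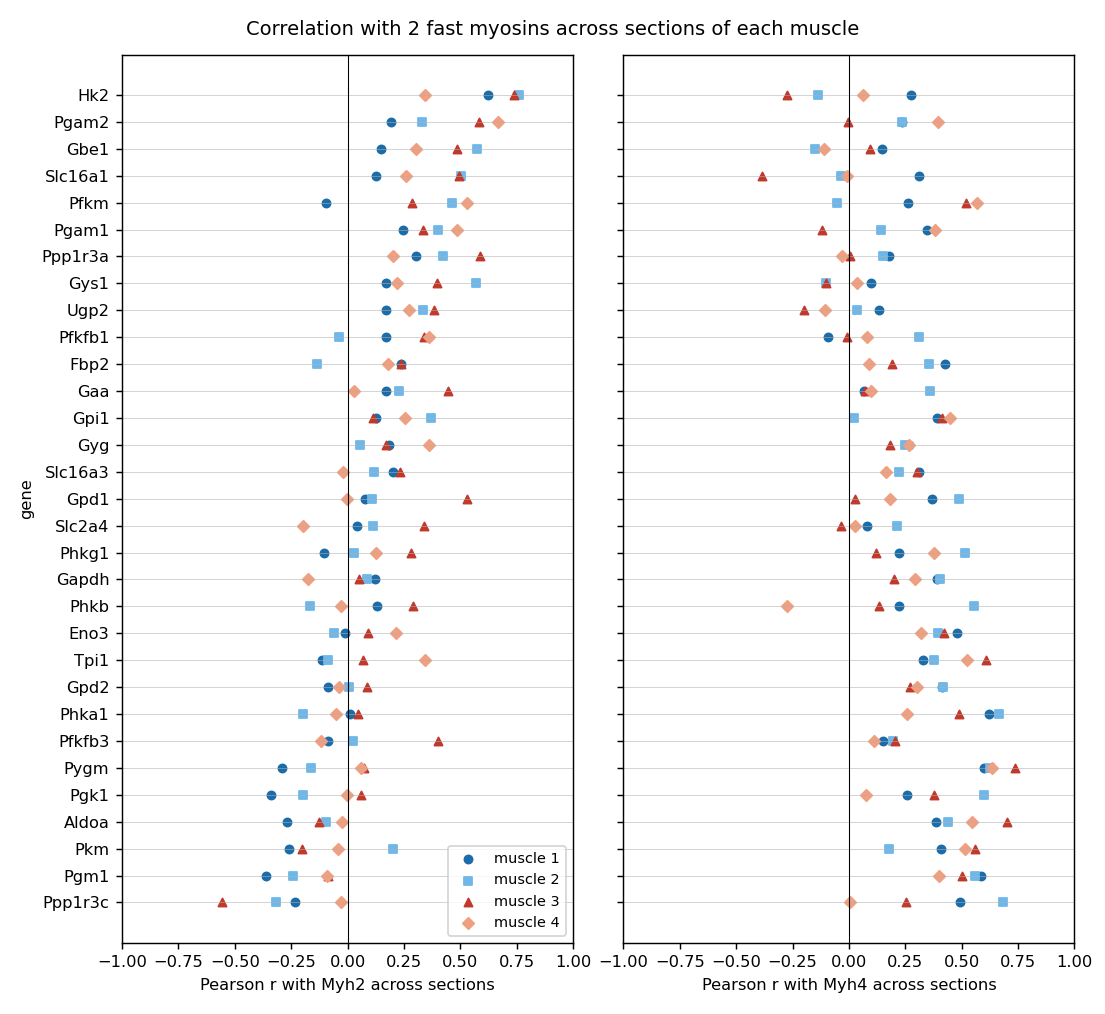
Pearson correlation of 31 genes with Myh2 (left) and Myh4 (right) across the sections of each muscle, 1 point per muscle, ordered by the median correlation with Myh2. Hk2 is among the highest for Myh2 and scatters around 0 for Myh4, and Pygm and Pgm1 sit high for Myh4.

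Some members differed more between muscles than along them. The pairs that shared a barcode set were compared by level on the log2(CPM + 0.5) scale, with no test, since 2 muscles stand on each side. Among the 32 tested members 7 had levels that did not overlap between muscles 1 and 2 and muscles 3 and 4 and differed by 2-fold or more, against 12.1% of all genes tested. Ppp1r3c was 4.90-fold higher in muscles 1 and 2, at 312 and 413 CPM against 86.3 and 60.9. Pkm was 3.68-fold higher in muscles 3 and 4. Slc16a1 was 2.95-fold higher there, at 6.73 and 6.57 against 19.97 and 21.3.

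The other 4 were Pfkfb3 (2.29-fold), Ppp1r3a (2.25-fold) and Gyg (2.17-fold), higher in muscles 3 and 4, and Fbp2 (2.41-fold), higher in muscles 1 and 2. The 2 targeting subunits of the glycogen phosphatase thus lay in opposite orders, with Ppp1r3c the more abundant in muscles 1 and 2 and Ppp1r3a in muscles 3 and 4. Aldoa (0.98-fold), Eno3 (0.98-fold), Slc2a4 (1.01-fold) and Phkg1 (1.02-fold) were nearly the same in both pairs. The median log2 difference was 0.12 for the members and -0.02 for all genes tested.

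Pgm1 lies on chromosome 4 at 99929414 to 99987294, Hk2 on chromosome 6 at 82725025 to 82774454, Pkm on chromosome 9 at 59656368 to 59679375 and Ppp1r3c on chromosome 19 at 36731731 to 36736653 (GENCODE M21, GRCm38). Tpi1 lies on chromosome 6 at 124810586 to 124814296, Phka1 on chromosome X at 102513975 to 102644246 and Pfkfb3 on chromosome 2 at 11471433 to 11554077. Exons of Pgm1 overlap those of Itgb3bp on the opposite strand, and exons of Tpi1 those of Spsb2. The use of strand in counting is not given in the sources used here, so counts of these and of 12 other members with such an overlap may include the partner's transcripts. Entries that name several genes held at most 1.04% of a member's counts, apart from Hk1 (3.76%) and Pgm2 (6.25%).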

How the data were processed

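For each of 4 muscles the authors deposited a table of estimated counts per gene and section barcode; all of its values lie within 0.001 of a whole number of UMIs corrected for repeated draws. Per the submitters' processing notes, the aligner was STAR 2.7.7a and the genome GRCm38. How reads were assigned to genes is not given in the sources used here. A second deposited table per muscle holds a scaled signal, from which only the authors' choice of sections was taken. Entries naming several genes (0.58% to 0.93% of counts) were left out. Counts were summed over 5 zones per muscle (1989683 to 6604613 transcripts), rounded, and tested with the quasi-likelihood test of edgeR 4.0.16 (R 4.3.3) on all 9317 genes passing filterByExpr, TMM scaling, muscle as block because zones share a muscle, Benjamini-Hochberg threshold 0.05 (biological coefficient of variation 7.03%). The script was tested on simulated data. Per-muscle differences used a pseudocount of 0.5 CPM (counts per common total), section correlations 1. Alternatives used DESeq2 1.42.0 and limma 3.58.1, other scaling, filters, zones and subsets. The limma setting averaged counts per common total over the sections of a zone, without TMM scaling. Sequences are from RefSeq and coordinates from GENCODE M21, matched by identifier for 34 of 34. Depth intervals are not given; the lowest count of a tested member in a zone sum was 3. All members are named, and a member is shown per muscle if called in any contrast. Other members of pairs are mostly given as means, and ratios of only some pairs are shown. Other list genes are named if called, and section correlations, muscle-pair levels and alternatives were described after their values were seen. The members and lists were chosen with earlier results of these data known.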

Additional observations from a re-analysis of the deposited data

Results flagged for a closer look

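In groups of 4 muscles, a muscle was singled out when its gap to the nearest other exceeded Dixon's 95% limit. Of 98 groups tested 8 met it, and chance gives about 1 in 20. Levels stood apart for Pygm in muscle 4 (7181 CPM, others 4692 to 5102), Pfkm in muscle 4 (1071, others 838 to 863) and Phkb in muscle 3 (39.4, others 30.8 to 32.2). Of the log2 differences between ends and middle, Gpi1 in muscle 3 (0.26, others 0.02 to 0.05) and Gpd1 in muscle 2 (0.060, others -0.09 to -0.08) stood apart. Between first and last end it was Hk2 in muscle 2 (0.57, others -0.05 to 0.03), Slc16a1 in muscle 2 (1.5, others 0.06 to 0.30) and Tpi1 in muscle 1 (0.067, others -0.08 to -0.06). Muscle 2 has the shallowest end zone, with 1989683 transcripts in zone 5. Under section barcodes that the authors did not keep lay 2.45% of the members' transcripts, which no comparison used.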

How the results depend on the processing

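The number of members called depended on the setting. Higher at the ends, 4 became 8 with DESeq2, 3 with the UMIs seen or thinned sums, 2 with no filter, 0 in muscles 1 and 2, 1 in muscles 3 and 4, 1 with 3 zones, 0 with equal section weights (limma), 0 with no replicate block and 0 to 5 with a muscle left out. Lower at the ends, 1 became 0 with 3 zones, limma or no replicate block and was 0 to 1 with a muscle left out. Lower at the first end, 2 became 1 with DESeq2, upper quartile scaling, no filter, the outermost sections left out or thinned sums, 0 in either pair of muscles, with limma or with no replicate block, 4 with 3 zones and 0 to 2 with a muscle left out. For any difference among zones, 5 became 9 with DESeq2, 1 in muscles 1 and 2, 3 in muscles 3 and 4, 0 with limma and with no replicate block, and 3 to 6 with a muscle left out. The block is the muscle itself, of which the zones are parts.

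All genes called higher and lower at the ends (58 and 77) became 18 and 26 in muscles 1 and 2, 17 and 38 in muscles 3 and 4, 17 and 25 with 3 zones, 28 and 38 with thinned sums, 1 and 2 with limma, 0 and 0 with no replicate block, and 11 to 87 and 27 to 96 with a muscle left out; DESeq2 gave 28 lower. Between the ends (190 and 106) they became 114 and 47 in muscles 1 and 2, 37 and 37 in muscles 3 and 4, 10 and 19 with limma, 1 and 0 with no replicate block, and 52 to 141 and 35 to 74 with a muscle left out; DESeq2 gave 61 lower. For any difference, 371 became 179, 158, 243 with thinned sums, 28 with limma, 4 with no replicate block and 173 to 327 with a muscle left out. The ratio of Gpd1 to Gpd2 at the ends was -0.084 with 3 zones. The cause of these shifts was not tested, beyond fewer samples where muscles were left out. No member called reversed its direction.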
